A study of Mus musculus with 24 samples.

Results

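The genes described here encode 10 fibroblast growth factors (FGFs): Fgf3, Fgf4, Fgf5, Fgf8, Fgf10, Fgf13, Fgf15, Fgf17, Fgf18 and Fgf22. They were taken by name, and all 10 were found among the 21887 protein-coding genes of the RefSeq table for GRCm38.p6 (mm10). For each gene, the presence, position and covered length of peaks within 1000 bp of either annotated gene end were read per clone. The peaks mark histone H3 acetylated at lysine 9 (H3K9ac) in day 5 embryoid bodies, the aggregates in which mouse embryonic stem cells differentiate. All cells were of strain C57BL/6. The enzyme Gcn5, the product of Kat2a, acetylates histones, this lysine among its targets, and the comparison addresses how the mark's distribution differs once Gcn5 is lost early in differentiation. Clones 4_1 and 6_1 carried the Gcn5fx/fx genotype (fx/fx) and clones 4_C2 and 6_C4 were Gcn5-/- (null), each clone in 2 replicates. Isolate pair 4 consists of 4_1 and 4_C2 and isolate pair 6 of 6_1 and 6_C4, so each genotype rests on 2 clones. The sources used here do not say how the deletion was made. Of 24 samples, the 8 H3K9ac libraries were used and 16 others, of total H3 or input DNA, were not used here.

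FGFs are signalling proteins, most of which are secreted, bind heparan sulphate and activate FGF receptor tyrosine kinases, which signal through RAS and ERK. In the early mouse embryo, Fgf4 comes from pluripotent cells and drives their exit from the naive state, Fgf5 marks the primed epiblast, and Fgf8 acts in the primitive streak during gastrulation. Fgf15 belongs to the endocrine group and is also made in the early nervous system, whereas Fgf13 belongs to a group that stays inside the cell and binds sodium channels. H3K9ac is found mainly around the start sites of active genes.

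Start sites differ in how many CpG dinucleotides they hold, and the 300 bases around each listed start are the stretch over which the peaks of these genes lay. RefSeq promoter sequences of GRCm38.p6, each covering 250 bases before and 50 bases after the start, were matched by symbol for 7 of the 10 genes. Fgf13 has 4 listed starts, which makes 10 sequences in all. Fgf8, Fgf15 and Fgf17 had no entry. The following 8 sequences are shown 5′ to 3′ on the strand of the gene, in lower case with each CpG in capitals, because they contrast starts covered in most libraries with starts covered in few or none. They belong to Fgf5 (chr5:98253934-98254233, plus strand), Fgf4 (chr7:144861136-144861435, plus strand), Fgf18 (chr11:33147351-33147650, minus strand) and Fgf10 (chr13:118714449-118714748, plus strand). The Fgf13 starts, all on the minus strand, are numbered from 1 at the gene's right end: start 1 (chrX:59585523-59585822), start 2 (chrX:59567299-59567598), start 3 (chrX:59166039-59166338) and start 4 (chrX:59134387-59134686).
Fgf5: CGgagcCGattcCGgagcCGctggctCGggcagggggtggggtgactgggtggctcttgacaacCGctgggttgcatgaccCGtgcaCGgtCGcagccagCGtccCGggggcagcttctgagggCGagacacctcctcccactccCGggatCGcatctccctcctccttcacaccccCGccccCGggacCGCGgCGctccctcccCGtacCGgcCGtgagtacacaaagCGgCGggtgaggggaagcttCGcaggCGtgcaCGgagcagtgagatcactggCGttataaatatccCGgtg
Fgf4: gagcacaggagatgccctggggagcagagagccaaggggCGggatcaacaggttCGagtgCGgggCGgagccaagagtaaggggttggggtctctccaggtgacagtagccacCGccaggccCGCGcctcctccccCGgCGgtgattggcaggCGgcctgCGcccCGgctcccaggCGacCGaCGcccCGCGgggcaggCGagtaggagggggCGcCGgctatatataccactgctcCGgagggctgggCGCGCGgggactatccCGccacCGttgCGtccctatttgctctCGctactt
Fgf18: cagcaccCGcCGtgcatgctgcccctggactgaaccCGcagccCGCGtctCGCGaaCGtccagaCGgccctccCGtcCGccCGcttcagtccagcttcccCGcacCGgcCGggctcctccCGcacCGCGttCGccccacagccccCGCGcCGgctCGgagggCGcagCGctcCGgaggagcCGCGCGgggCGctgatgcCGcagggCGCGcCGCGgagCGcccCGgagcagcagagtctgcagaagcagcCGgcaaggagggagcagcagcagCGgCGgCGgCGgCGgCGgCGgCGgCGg
Fgf10: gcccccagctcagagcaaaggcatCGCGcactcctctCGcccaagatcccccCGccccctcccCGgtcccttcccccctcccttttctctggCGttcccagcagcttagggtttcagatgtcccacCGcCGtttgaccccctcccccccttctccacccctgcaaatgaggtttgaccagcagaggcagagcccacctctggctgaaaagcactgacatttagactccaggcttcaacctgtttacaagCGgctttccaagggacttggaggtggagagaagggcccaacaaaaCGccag
Fgf13 start 1: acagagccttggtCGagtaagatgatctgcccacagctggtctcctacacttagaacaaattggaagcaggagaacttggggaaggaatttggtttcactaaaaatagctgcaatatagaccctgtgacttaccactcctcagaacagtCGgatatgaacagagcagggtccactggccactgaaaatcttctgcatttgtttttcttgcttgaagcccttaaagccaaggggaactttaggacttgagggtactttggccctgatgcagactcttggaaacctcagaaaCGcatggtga
Fgf13 start 2: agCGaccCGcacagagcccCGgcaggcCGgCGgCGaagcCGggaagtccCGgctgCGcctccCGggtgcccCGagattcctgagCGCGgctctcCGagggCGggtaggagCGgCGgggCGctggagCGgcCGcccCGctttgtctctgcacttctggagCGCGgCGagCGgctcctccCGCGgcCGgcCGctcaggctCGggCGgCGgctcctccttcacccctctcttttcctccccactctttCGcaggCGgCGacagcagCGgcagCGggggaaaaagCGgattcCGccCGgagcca
Fgf13 start 3: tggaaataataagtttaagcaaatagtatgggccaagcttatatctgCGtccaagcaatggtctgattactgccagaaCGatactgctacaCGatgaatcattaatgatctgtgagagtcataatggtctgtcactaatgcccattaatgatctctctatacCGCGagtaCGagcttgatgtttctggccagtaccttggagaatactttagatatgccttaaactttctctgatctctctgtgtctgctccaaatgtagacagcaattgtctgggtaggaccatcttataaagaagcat
Fgf13 start 4: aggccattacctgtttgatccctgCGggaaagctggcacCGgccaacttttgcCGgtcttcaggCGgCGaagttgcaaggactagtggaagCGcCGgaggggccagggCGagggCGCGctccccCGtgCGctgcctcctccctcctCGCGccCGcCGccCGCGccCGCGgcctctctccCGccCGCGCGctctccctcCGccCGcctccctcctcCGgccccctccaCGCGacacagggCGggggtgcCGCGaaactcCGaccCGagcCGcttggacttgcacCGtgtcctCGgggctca

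The Fgf5 sequence holds 29 CpG and had a peak over it in all 8 libraries. Fgf18 has the most CpG of the 10 sequences, 47, which puts it at the percentile 98.2 of all promoters of the table, and had a peak in 7 libraries. The Fgf4 sequence holds 28 CpG and was covered in 6 libraries. Those 3 dense starts contrast with that of Fgf10, whose sequence holds 10 CpG and whose start lay under a peak in 4 libraries. In the first 4_C2 replicate that peak ended 3 bp after the start, so it did not cover the whole sequence. Fgf3, whose sequence (chr7:144838362-144838661, plus strand) is not shown, holds 14 CpG and was covered in 5 libraries. Fgf22 (chr10:79754859-79755158, plus strand) holds 18 CpG and was covered in 2 libraries, so the order of coverage is not the order of CpG count. Within Fgf13, start 1 has 3 CpG and start 3 has 6, and no library had a peak at either. The CpG-rich starts 2 and 4 of the same gene, with 40 and 37 CpG, each had a peak in 3 libraries. Across all 21263 promoters of the table, the median CpG count was 3 for the 8032 with no peak within 1000 bp of the start, 14 for the 3439 with a peak in 1 to 7 libraries and 24 for the 9792 with a peak in all 8. The FGF sequences are set beside these medians as a description, with no test.

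**Figure D1:**
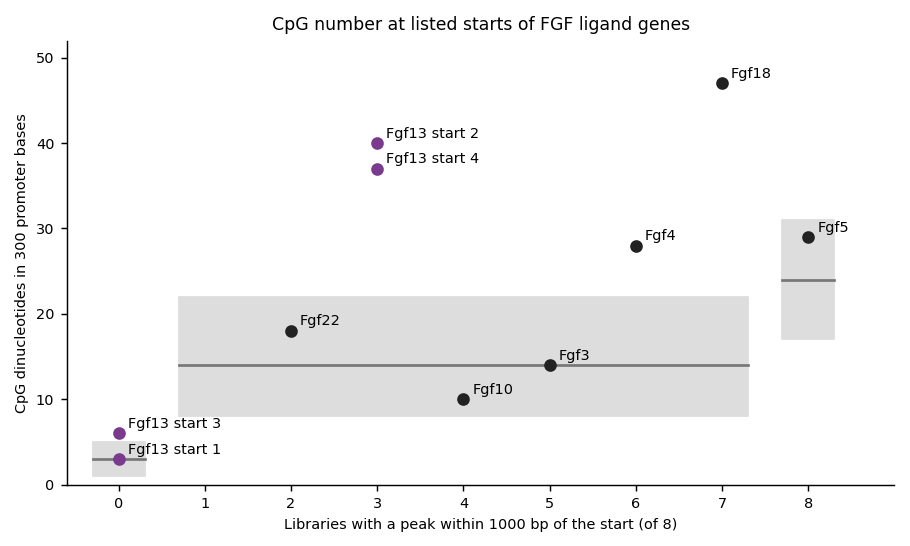
CpG count in the 300 bases around each listed start (vertical axis) against the number of H3K9ac libraries, of 8, with a peak within 1000 bp of that start (horizontal axis), with Fgf13 starts in purple and grey boxes giving the quartiles and median line of all promoters with a peak in 0, 1 to 7 or 8 libraries. Fgf5 with 29 CpG stands at 8 libraries and Fgf18 with 47 at 7, while the Fgf13 starts with 40 and 37 CpG stand at 3.

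Motifs were read from the same sequences on both strands. The GC box GGGCGG, which binds Sp1 family factors, was found in 7 of the 10 sequences and in 46.2% of all promoters. The TATA box letters TATAAA were found in 2 of 10, those of Fgf5 and of Fgf13 start 3, and in 12.6% of all promoters. Both matches lay after the listed start, at positions 34 and 37, and not before it. The E-box CACGTG, a site type bound by Myc and related factors, was found in 0 of 10 and in 7.84% of all promoters. None of the 3 motifs is contained in another, and a match is a description of letters only.

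The lists held 12041 to 20809 peaks and covered 21.8 to 44.3 Mb, with a median peak width of 1639 to 2056 bp. Pair 6 lists held 17849 to 20809 peaks and pair 4 lists 12041 to 15315. Within pair 4, 4_C2 had 14947 and 12041 peaks against 15315 and 13260 in 4_1, and within pair 6, 6_C4 had 18932 and 17849 against 20809 and 18477 in 6_1, so the null lists were shorter on average in both pairs but overlapped the fx/fx lists. Sequencing depth is unknown, the lists carry no peak height, and of all pairs of lists, 1 pair, the second 6_1 and the first 6_C4 replicate, shared a peak of the same coordinates, 1 peak. Among cell type markers, peaks were found at 3 to 5 of 6 pluripotency genes and 3 to 4 of 4 primed epiblast genes in every library. Fgf5, described here and marked in all 8 libraries, is itself on the primed epiblast list, so that count is not separate from its values. Primitive streak and mesoderm genes had peaks at 3 to 6 of 6 in fx/fx and 1 to 5 of 6 in null libraries, endoderm genes at 1 to 4 and 0 to 4 of 6, neuroectoderm genes at 2 to 3 and 1 to 3 of 4, trophoblast genes at 1 to 3 and 1 to 2 of 4, and fibroblast genes at 1 to 3 and 0 to 2 of 6. Esrrb, Afp, Elf5 and Postn, markers of the pluripotency, endoderm, trophoblast and fibroblast lists, had a peak in no library. In such bulk samples, fewer cells carrying the mark and less of the mark per cell cannot be told apart, and neither can a peak that was missed from one that was not there.

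Presence at the FGF ligand genes varied from library to library. Of the 10 genes, 7 and 5 had a peak at an end in the 4_1 replicates, 5 and 4 in 4_C2, 9 and 8 in 6_1, and 7 and 7 in 6_C4. Clone 6_1 therefore had the highest counts and 4_C2 the lowest. Of 80 combinations of gene and library, 52 had a peak. The fx/fx libraries had 29 of 40, where 56.0% of all genes had one, and the null libraries 23 of 40, where 53.7% did. Pair 4 had 21 of 40 and pair 6 had 31 of 40, against 52.1% and 57.5% of all genes.

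Few of the genes were marked uniformly. Only Fgf5 had a peak in all 8 libraries, where 45.3% of all genes did, and 8 of 10 had a peak in some libraries but not others, where 17% of all genes did. Fgf13 had none at either end, and 62.2% of all genes had a peak in at least 1 library. The genes were chosen with such results known, so these shares are given as a description. Where genes are marked in 1 to 7 libraries, the median covered length over the table was 1368 bp where a peak was present, against 2555 bp for genes marked in all 8.

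**Figure D2:**
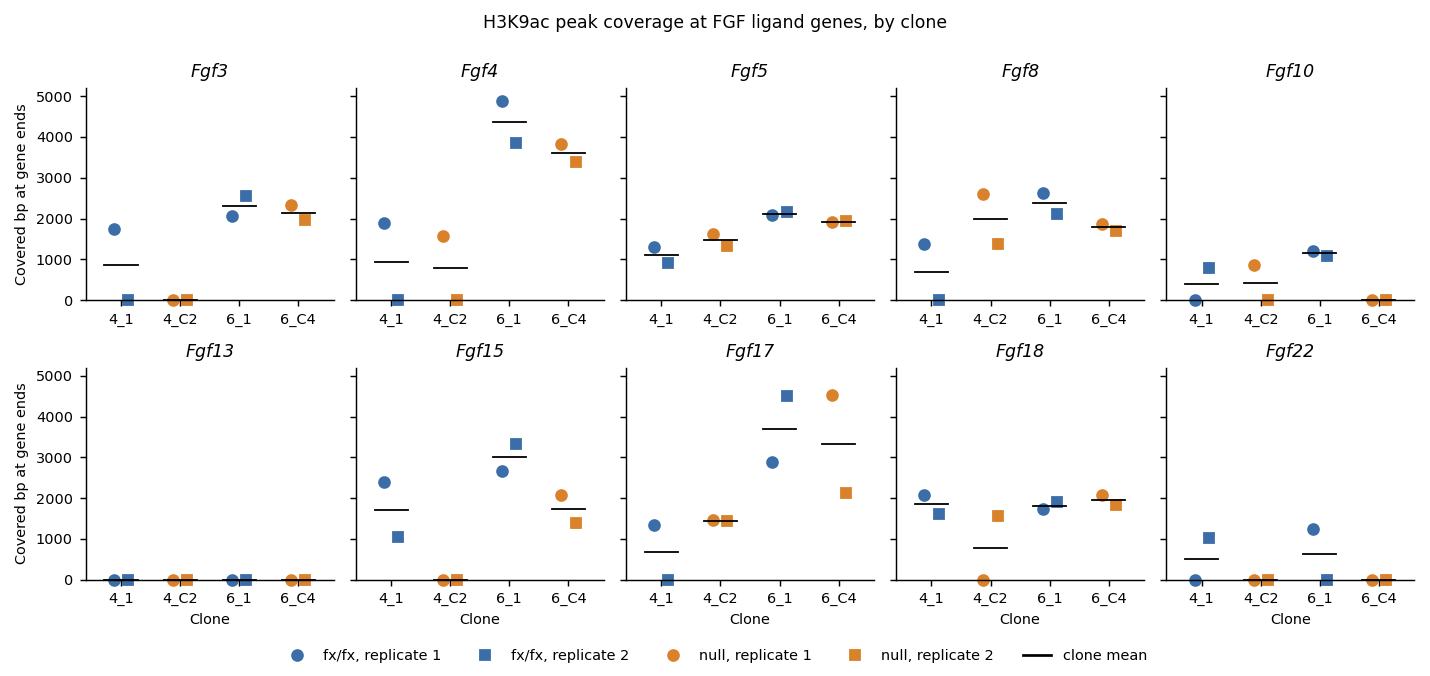
Base pairs covered by H3K9ac peaks at the gene ends (vertical axis) for each FGF ligand gene, by clone (horizontal axis, fx/fx in blue and null in orange), with each point 1 library, circles replicate 1, squares replicate 2, bars the clone mean and 0 meaning no peak. Fgf5 lies above 0 throughout, from 914 to 2164 bp, while Fgf22 is above 0 only in 1 library of 4_1 and 1 of 6_1.

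Fgf4 and Fgf5 are paracrine ligands of the same subfamily. Fgf5 (chromosome 5, 98254184 to 98277033, plus strand) was covered over 1307 and 914 bp in 4_1, 1632 and 1325 bp in 4_C2, 2080 and 2164 bp in 6_1, and 1902 and 1945 bp in 6_C4. All 4 pair 6 libraries lay above all 4 pair 4 libraries. Every Fgf5 peak spanned the start printed above, reaching 411 to 862 bp before it and 410 to 1304 bp after it. Fgf4 (chromosome 7, 144861386 to 144865245, plus strand) was covered over 1889 and 0 bp in 4_1, 1581 and 0 bp in 4_C2, 4883 and 3862 bp in 6_1, and 3831 and 3379 bp in 6_C4. The second replicate of each pair 4 clone thus had no Fgf4 peak. The pair 4 peaks ended 1118 to 1592 bp after the start, whereas the pair 6 peaks ran 2877 to 4007 bp past it. The gene is 3860 bp long, and all 4 pair 6 libraries had their peak within 1000 bp of both ends, so the same peak covered most or all of the gene. The median where present, 3605 bp, was the longest of the 10 genes.

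Fgf8, Fgf17 and Fgf18 form another subfamily, with roles in gastrulation, in midbrain and hindbrain patterning and in bone. Fgf8 (chromosome 19, 45736491 to 45742941) was covered over 1364 and 0 bp in 4_1, 2600 and 1367 bp in 4_C2, 2637 and 2120 bp in 6_1, and 1869 and 1699 bp in 6_C4. The 4_1 library without a peak was the only one of 8. Peaks lay at the right end in 7 libraries. The first 4_C2 replicate also had a 974 bp peak at the left end, without which its value would be the 1626 bp of the right-end peak. Fgf17 (chromosome 14, 70636203 to 70642268) was covered over 1332 and 0 bp in 4_1, 1450 and 1426 bp in 4_C2, 2894 and 4495 bp in 6_1, and 4529 and 2118 bp in 6_C4. Fgf17 had its peaks in the same 7 libraries as Fgf8, a pattern of presence that 132 genes of the table showed. Its left-end peaks also touched the ends of Dmtn, which encodes an actin-binding protein, and of the long noncoding RNA Gm38605 in every library, so this mark cannot be given to Fgf17 alone. A separate right-end peak of 845 and 1023 bp in 6_1 and 1324 bp in the first 6_C4 replicate touched Fgf17 only. Fgf18 (chromosome 11, 33116970 to 33147400, minus strand) was covered over 2085 and 1617 bp in 4_1, 0 and 1569 bp in 4_C2, 1723 and 1895 bp in 6_1, and 2074 and 1827 bp in 6_C4. Apart from the library at 0, its values lay in a narrow range and the clones overlapped.

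Fgf18 also had a region inside the gene (chromosome 11, 33122380 to 33123832), away from both ends. There the covered length was 1421 and 984 bp in 4_1, 0 and 0 bp in 4_C2, 1195 and 1236 bp in 6_1, and 1300 and 996 bp in 6_C4. Of the 2 null clones, 4_C2 thus lacked the inner region in both replicates and 6_C4 had it in both.

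Fgf3, Fgf10 and Fgf22 are ligands that signal mainly to epithelia through FGFR2 isoforms, in the inner ear, in lung and limb buds and at synapses. Fgf3 (chromosome 7, 144838612 to 144843348, plus strand) was covered over 1736 and 0 bp in 4_1, 0 and 0 bp in 4_C2, 2057 and 2541 bp in 6_1, and 2327 and 1958 bp in 6_C4. It was present in all pair 6 libraries and in 1 of 4 pair 4 libraries, and of the 13622 genes that any library marked, 3% had one in all pair 6 and at most 1 pair 4 library. Fgf10 (chromosome 13, 118714699 to 118792573, plus strand) was covered over 0 and 781 bp in 4_1, 855 and 0 bp in 4_C2, 1209 and 1079 bp in 6_1, and 0 and 0 bp in 6_C4. Its peaks were the narrowest of the genes with peaks, with a median of 967 bp where present, and reached only 3 to 359 bp after the start. Fgf22 (chromosome 10, 79755051 to 79757795, plus strand) was covered over 0 and 1023 bp in 4_1 and 1235 and 0 bp in 6_1, and had 0 bp in all 4 null libraries. No other gene of the table had a peak in just those 2 libraries.

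Fgf15 (chromosome 7, 144896532 to 144900953) was covered over 2389 and 1032 bp in 4_1, 0 and 0 bp in 4_C2, 2672 and 3317 bp in 6_1, and 2082 and 1391 bp in 6_C4. Within each pair, both null libraries lay below both fx/fx libraries, although the 6_C4 values overlap those of 4_1. The peaks lay at the left end, and 2 of them also touched the long noncoding RNA Gm26793.

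**Figure D3:**
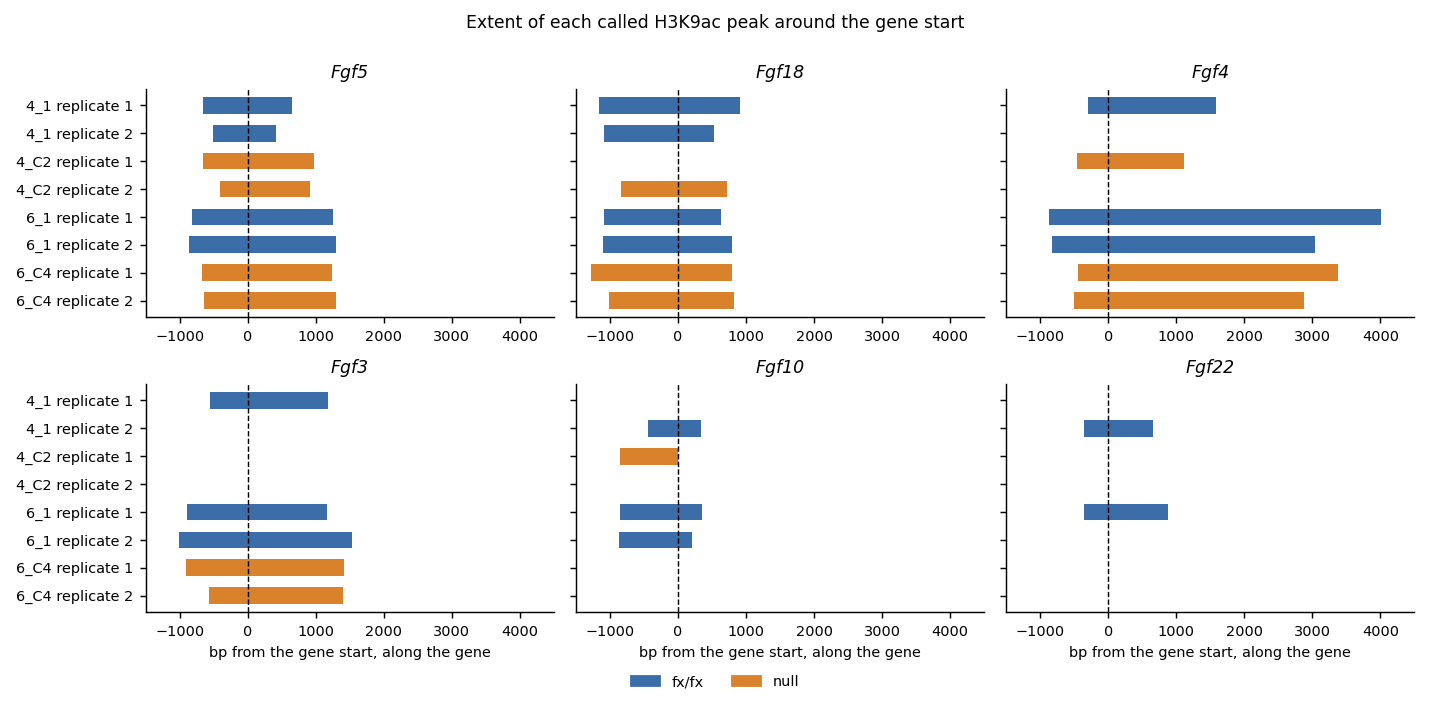
Extent of each H3K9ac peak relative to the annotated start (horizontal axis, distance in bp along the gene, dashed line at the start) for the 6 FGF ligand genes with a listed strand and a peak at an end, 1 row per library, with fx/fx in blue and null in orange. Every peak spans its start, and the Fgf4 peaks of pair 6 run 2877 to 4007 bp past the start against 1118 to 1592 bp in pair 4.

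Fgf13 (chromosome X, 59062139 to 59585572, minus strand), the largest of these genes at 523434 bp, had 0 bp at its ends in all 8 libraries, as 8265 genes of the table did. Peaks lay instead at the inner CpG-rich starts printed above. Start 2, which is 18.2 kb from the right end, had peaks of 1216 and 1164 bp in the 6_1 replicates and of 927 bp in the second 6_C4 replicate. Start 4, 451 kb from the right end, had peaks of 1052 bp in the first 4_1 replicate, 1480 bp in the first 6_1 replicate and 1016 bp in the first 6_C4 replicate. Both starts together were covered in 1 library, the first 6_1 replicate, and 4_C2 had neither. A rule based on the outermost ends alone therefore listed as unmarked a gene with peaks at alternative starts.

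Fgf3, Fgf4 and Fgf15 lie in that order on chromosome 7, with Fgf4 beginning 22.8 kb and Fgf15 57.9 kb from the start of Fgf3. A further region (chromosome 7, 144855800 to 144858409) lay between Fgf3 and Fgf4, 2977 bp left of Fgf4 and at no annotated gene end. It was covered over 2427 and 2491 bp in 6_1 and 2130 and 1726 bp in 6_C4, and over 0 bp in all pair 4 libraries. Regions in all 4 pair 6 libraries and no pair 4 library made up 2.85% of the 26034 merged regions. In the second 4_C2 replicate none of these 4 regions had a peak, and in the first 4_C2 replicate only Fgf4 had one, 1581 bp long. The neighbouring region to the right (chromosome 7, 144914329 to 144917514), at the ends of Bc1 and LTO1 and 13376 bp from Fgf15, was covered in all 8, over 1932 and 2042 bp in 4_1, 2081 and 1841 bp in 4_C2, 3109 and 2273 bp in 6_1, and 2099 and 1697 bp in 6_C4. Its width differed between null and fx/fx by -0.12 ± 0.15 (SE) on the log2 scale after centring on each library's median, with a limma adjusted p = 0.869. The region at Ccnd1, the cyclin D1 gene 36593 bp right of Fgf15, was also in all 8 lists, with a difference of -0.12 ± 0.12 and a limma adjusted p = 0.847. The Ccnd1 region was 6059 and 6103 bp long in 4_1, 5932 and 3486 bp in 4_C2, 6794 and 6684 bp in 6_1, and 6303 and 6406 bp in 6_C4, so the second 4_C2 replicate was the lowest there too. In the second 4_1 replicate, 3 of the 4 cluster regions were likewise at 0.

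**Figure D4:**
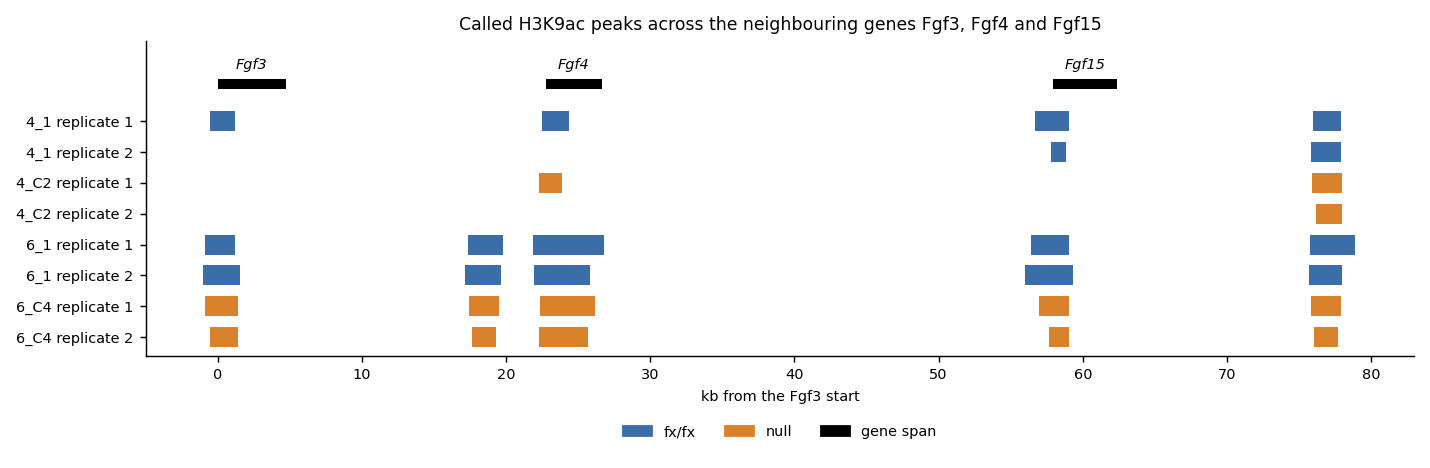
H3K9ac peaks of the 8 libraries, 1 row each with fx/fx in blue and null in orange, across the cluster of Fgf3, Fgf4 and Fgf15 (black gene spans), with the horizontal axis giving the distance from the Fgf3 start in kb and each bar a deposited peak drawn to scale. Fgf4 begins at 22.8 kb and Fgf15 at 57.9 kb, and the second 4_C2 replicate has no bar over any of the 3 genes.

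Null and fx/fx libraries were compared first. None of the 9 genes with a peak had covered lengths that separated the 4 null from the 4 fx/fx libraries. Over the 13622 genes that any library marked with a peak, called marked genes here, 0.044% (6 genes) had all null libraries higher and 2.09% (285 genes) all null libraries lower, which became 69 and 97 genes once covered length was divided by each library's median peak width. At Fgf15 the fx/fx libraries had a mean covered length of 2352 ± 962.2 bp and the null ones 868.2 ± 1042 bp (SD, n = 4 each), a difference of -1484 bp with a two-sided exact permutation p = 0.114 (0.934 after Benjamini-Hochberg adjustment over marked genes). The second 4_1 replicate, at 1032 bp, lay below both 6_C4 values. Without it the Fgf15 groups no longer overlapped, with a difference of -1924 bp (exact permutation p = 0.0571). Leaving out that library also raised the number of genes with all null libraries lower, to 1075 of 13610 from 285 of 13622. At Fgf10, the values were 767.2 ± 542 and 213.8 ± 427.5 bp (SD, n = 4 each, exact p = 0.257). At Fgf22 they were 564.5 ± 657.5 bp and 0 bp in every null library (exact p = 0.429). Fgf3 had 1584 ± 1106 and 1071 ± 1246 bp, Fgf4 had 2658 ± 2165 and 2198 ± 1758 bp, and Fgf18 had 1830 ± 205 and 1368 ± 934.7 bp, the fx/fx value given first. Means in null libraries were the higher ones at Fgf5 (1701 ± 286.4 against 1616 ± 606.6 bp), Fgf8 (1884 ± 521 against 1530 ± 1146 bp) and Fgf17 (2381 ± 1468 against 2180 ± 1944 bp). For these 6 genes the two-sided exact permutation p was at least 0.486. With 4 libraries in each group the smallest p is 0.0286, and with adjustment over marked genes no difference at these ends passed 0.05.

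The median difference of the 9 genes was -462.5 bp with 6 below 0, against -239.8 bp over the 13622 marked genes, of which 82.3% lay below 0. Null lists were also shorter on average. When every list was reduced to its 12041 widest peaks, Fgf10 and Fgf22 had no peak left in any library, and Fgf15 had 2389 and 0 bp in 4_1, 0 and 0 bp in 4_C2, 2672 and 3317 bp in 6_1, and 2082 and 0 bp in 6_C4, a difference of -1574 bp (exact p = 0.143). For presence, 5 of the 9 genes had a peak in more fx/fx than null libraries, where 16.3% of marked genes did, and 2 had one in more null libraries, where 5.19% did. The 5 were Fgf3, Fgf10, Fgf15, Fgf18 and Fgf22, and the 2 were Fgf8 and Fgf17. Fgf4 and Fgf5 had peaks in as many fx/fx as null libraries, as did 78.6% of marked genes. At Fgf10, Fgf15 and Fgf22 the null libraries with a peak were at least 2 fewer, as at 3.99% of marked genes, and none of the 9 had at least 2 fewer fx/fx libraries, as 0.91% did. In lists of equal length, 12330 genes kept a peak. There, Fgf3, Fgf15 and Fgf18 had one in more fx/fx than null libraries, as did 13.9% of these genes. Fgf5, Fgf8 and Fgf17 had one in more null libraries, as did 11.5%. In those lists Fgf15 was marked in 3 fx/fx libraries and 1 null one. Fgf5, whose 4_1 peaks are narrow, was marked in 2 fx/fx and all 4 null ones. In the full lists, Fgf15 had peaks in both 4_1 replicates and neither 4_C2 replicate, as 1.84% of marked genes did. Fgf10 had the same pattern in pair 6 instead, in both 6_1 and neither 6_C4 replicate, as 1.13% did. The converse, a peak in both null libraries of a pair and neither fx/fx one, was found at none of the 9 and at 0.374% (pair 4) and 0.286% (pair 6) of marked genes. Peaks in 2 fx/fx libraries and no null library, as at Fgf22, were found at 0.771% of marked genes. The presence of Fgf15 over all 8 libraries was that of 170 genes of the table, itself included. Eomes, Gsc and Tbx6 of the streak and mesoderm list and Twist2 of the fibroblast list were among them. Of the 6 streak and mesoderm markers, 4 had a peak in more fx/fx than null libraries, and T and Mixl1 in as many of each. More fx/fx libraries were also marked at 5 of 6 fibroblast, 4 of 6 endoderm, 3 of 4 neuroectoderm, 3 of 6 pluripotency and 2 of 4 trophoblast genes. More null libraries were marked at 1 endoderm and 1 trophoblast gene. Each of the 4 primed epiblast genes, Fgf5 among them, had peaks in as many fx/fx as null libraries. The part of these markers in the result was not tested.

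Region width could be fitted for Fgf5 alone, since the other 9 genes had no region at an end in all 8 lists. After centring, the Fgf5 region was 0.28 ± 0.14 (SE) wider in null libraries on the log2 scale (limma adjusted p = 0.724). In this fit with isolate pair as a covariate, 0 of 10171 regions passed 0.05 in either direction, and 378 wider (3.72%) and 327 narrower regions (3.22%) had an unadjusted p under 0.05 in limma. With a pseudocount of 200 bp in regions present in at least 4 lists, the largest log2 difference among the FGF genes was at Fgf15, -1.81 ± 0.54 (limma adjusted p = 0.81).

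**Figure D5:**
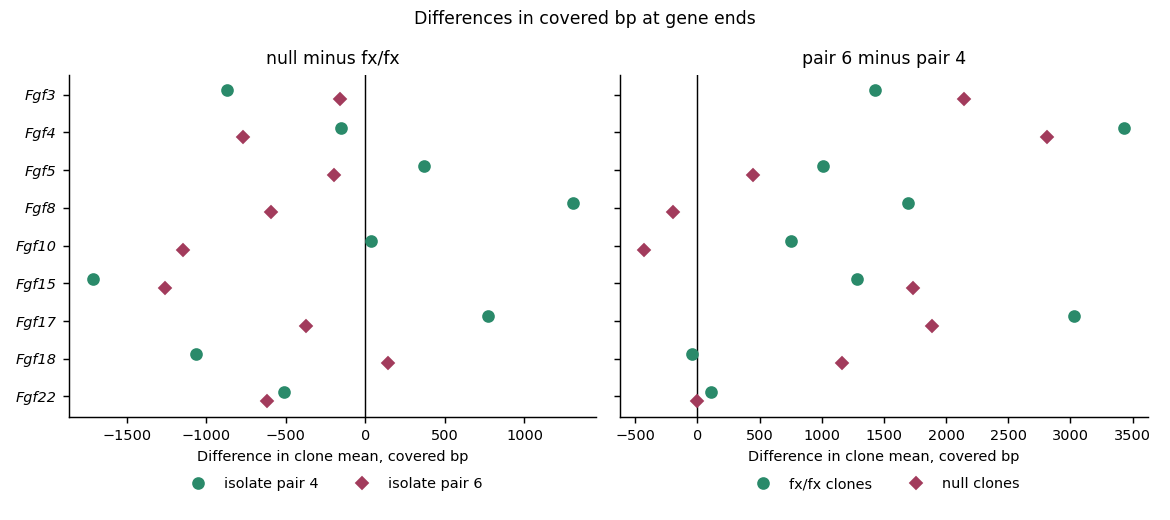
Differences between clone means of covered length (horizontal axis, bp, 2 replicates a clone, no error bars) for the 9 FGF ligand genes with a peak, null minus fx/fx within each isolate pair on the left and pair 6 minus pair 4 within each genotype on the right. On the left Fgf15 lies below 0 in both pairs, at -1710 and -1258 bp, while Fgf5 and Fgf8 lie above 0 in pair 4 and below 0 in pair 6, and on the right Fgf4 lies at 3428 and 2814 bp.

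Within the pairs, only Fgf15 among these genes had both null libraries below both fx/fx libraries in both pairs, with mean differences of -1710 bp in pair 4 and -1258 bp in pair 6. Null libraries lay below in both pairs at 13% of marked genes and above in both at 0.176%, the latter including none of the 9. Fgf22 differed by -511.5 and -617.5 bp, each resting on 1 fx/fx library. Fgf3 had differences of -868 and -156.5 bp, and Fgf4 -154 and -767.5 bp, with overlapping replicates in at least 1 pair. Opposite signs were found at the other 5 genes, as at Fgf10 with 37 and -1144 bp, Fgf17 with 772 and -371 bp and Fgf18 with -1066 and 141.5 bp. Fgf5 differed by 368 bp in pair 4 and by -198.5 bp in pair 6, and Fgf8 by 1302 and -594.5 bp, each with no overlap of replicates in either pair. That order, higher in pair 4 and lower in pair 6, was found at 1.58% of marked genes, and its converse at 0.785% and at none of the 9. At Fgf8 the pair 4 order rested on 1367 bp in the second 4_C2 replicate against 1364 bp in the first 4_1 replicate. The 4_1 mean there includes a library at 0 bp, and the 4_C2 mean includes the 974 bp left-end peak. For Fgf5 the interaction of genotype and pair was -0.59 ± 0.21 (SE, log2), with a limma adjusted p = 0.691, and at Fgf8, in the fit with a pseudocount, it was -1.97 ± 1.26 (limma adjusted p = 0.878). At Fgf15, whose 4_C2 libraries had no peak, that fit gave 2.42 ± 0.50 (limma adjusted p = 0.1745). This was the lowest adjusted p of the FGF genes there, with the null minus fx/fx difference less negative in pair 6. Without a pseudocount, the interaction passed 0.05 at 0 of 10171 regions, with 281 above (2.76%) and 396 below 0 (3.89%) at an unadjusted p under 0.05 in limma.

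Isolate pairs were compared next. Fgf3, Fgf4, Fgf5 and Fgf17 had every pair 6 library above every pair 4 library, which is 4 of 9 genes against 27.9% of marked genes. None had every pair 6 library lower, as 0.257% of marked genes did. By presence, 6 of the 9 genes had a peak in more pair 6 than pair 4 libraries, where 22.6% of marked genes did, and 0 in more pair 4 libraries, where 2.47% did. Covered length at Fgf4 was 867.5 ± 1010 bp in pair 4 and 3989 ± 635.7 bp in pair 6 (SD, n = 4 each, exact permutation p = 0.0286, adjusted over marked genes 0.101). Fgf3 had 434 ± 868 and 2221 ± 264.4 bp, Fgf17 had 1052 ± 703.2 and 3509 ± 1201 bp, and Fgf5 had 1294 ± 294.3 and 2023 ± 120.9 bp, each with the same exact p and adjusted p. This p is the smallest that the design can give. Without any single pair 6 library the exact p of Fgf3 and Fgf5 was 0.0571, as was that of Fgf17 without any single pair 4 library, although their groups still did not overlap. Fgf4 kept an exact p of 0.0286 whichever library was left out.

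Fgf15 had 855.2 ± 1132 bp in pair 4 and 2366 ± 822.5 bp in pair 6 (SD, n = 4 each, exact p = 0.0857). Fgf8 had 1333 ± 1062 and 2081 ± 408.9 bp (exact p = 0.229), and Fgf18 had 1318 ± 908.8 and 1880 ± 147.6 bp (exact p = 0.257). The groups of these 3 genes overlapped. Those of Fgf8 did not overlap with peaks of at least 1000 bp only, which left out its 974 bp left-end peak in the first 4_C2 replicate. The difference was then 992 bp (exact p = 0.0286), and 3748 of 13385 genes had every pair 6 library higher. Nor did the Fgf8 groups overlap without the first 4_C2 replicate, where 4607 of 13558 genes had every pair 6 library higher. Those of Fgf15 and Fgf18 did not overlap without the first 4_1 replicate, where 5335 of 13584 genes had every pair 6 library higher. Fgf10, with 409 ± 473.2 and 572 ± 662.6 bp, and Fgf22, with 255.8 ± 511.5 and 308.8 ± 617.5 bp, had exact p values of 0.657 and 1. All 9 means were the higher ones in pair 6, as were 90.5% of marked genes, with a median difference of 748.5 bp against 480 bp. The pair 6 lists also held more peaks. In lists of equal length, 5 of the 7 genes that kept a peak had every pair 6 library above every pair 4 library. Over all genes with a peak in those lists, 3149 of 12330 did. The 5 differences were 1787 bp at Fgf3, 3121 bp at Fgf4, 1284 bp at Fgf5, 992 bp at Fgf8 and 1659 bp at Fgf17. After centring, the Fgf5 region was 0.41 ± 0.14 (SE, log2) wider in pair 6, with a limma adjusted p = 0.105. Over all regions limma called 4.32% (439) wider and 2.52% (256) narrower in pair 6, which became 2724 and 22 without centring. The comparison within a genotype gave a difference of 3428 bp between 6_1 and 4_1 at Fgf4 and 2814 bp between 6_C4 and 4_C2. At Fgf17 these were 3028 and 1886 bp, at Fgf3 1431 and 2142 bp, and at Fgf5 1012 and 445 bp.

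Around the other genes, regions within 50000 bp were read for their own presence. Fgf22 lies among many other genes with peaks, and the region at Bsg, 45570 bp to its left, was in all 8 lists and passed limma's threshold between pairs, 0.74 ± 0.18 (SE, log2) wider in pair 6 (adjusted p = 0.0404). The Polrmt region 7447 bp left of Fgf22 was in all 4 pair 6 and 2 pair 4 libraries. Fgf10 had no region but its own. Fgf5 had a further one 15577 bp to its right, 1087 bp long and found in the first 6_C4 replicate only. The region at Npm3 and Oga, 5017 bp right of Fgf8, was in all 8 lists and differed by 0.01 ± 0.10 (SE, log2) between genotypes (limma adjusted p = 0.987). Between it and Fgf8, a region at Npm3 (chromosome 19, 45745119 to 45747762) was found in both 6_1 replicates only, over 1228 and 1453 bp. Npm1, a histone chaperone gene 10577 bp right of Fgf18, was marked in all 8 lists, with a difference of -0.17 ± 0.15 and a limma adjusted p = 0.812. Inside Dmtn, 8451 bp left of Fgf17, a region (chromosome 14, 70625754 to 70627752) was covered in 1 of 4 pair 4 libraries and in all 4 of pair 6, the same presence as Fgf3.

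The other genes of the FGF pathway were read in 5 lists. Of the 12 other FGF ligand genes, 2 (Fgf2 and Fgf11, named after their values were seen) had a peak in all 8 libraries, 5 in 1 to 7 and 5 in none. Fgf9 had a peak in 7 libraries, over 1210 ± 916.9 bp in the null and 2274 ± 574 bp in the fx/fx ones (SD, n = 4 each, exact p = 0.0571). Of 7 receptor and co-receptor genes, 4 were marked in all 8 libraries, 2 in some and 1, the co-receptor gene Klb, in none. Fgfr4 was marked in 3 fx/fx libraries and 1 null one, and the co-receptor gene Kl in 2 and 3. Of 21 intracellular transducers, 20 were marked in all 8 libraries, and the kinase gene Araf in 4 fx/fx and 3 null ones. Feedback and target genes had 15 of 19 in all 8, and Flrt3, Myc, Spred3 and Spry4 in 4 fx/fx and 3 null libraries. Of 19 heparan sulphate genes, 17 were in all 8, and the glypican gene Gpc3 was found in 3 fx/fx and 1 null library.

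In region width, no gene of these 5 lists passed limma's threshold between genotypes: 0 of 2 other ligands, 0 of 4 receptors, 0 of 20 transducers, 0 of 15 feedback and target genes and 0 of 17 heparan sulphate genes. The medians were 0.04, 0.09, 0.05, -0.04 and -0.02 on the log2 scale, where the median of all regions was 0.02. The adaptor gene Frs2, which docks to FGF receptors, had -0.39 ± 0.22 (SE, limma adjusted p = 0.724). Fgfrl1, a receptor without a kinase domain, had 0.19 ± 0.09 (limma adjusted p = 0.72). Ext1, which polymerises heparan sulphate, had -0.22 ± 0.12 (limma adjusted p = 0.724). By covered length, 1 gene of these lists separated the genotypes, where 2.09% of marked genes were lower in null libraries, and it was the syndecan gene Sdc2, named after its values were seen. It had 1155 ± 116.6 bp in the null and 1438 ± 41.11 bp in the fx/fx ones (SD, n = 4 each, exact p = 0.0286, adjusted over marked genes 0.934).

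Presence over the 8 libraries was also matched between genes. Fgf4 had peaks in the same libraries as the epiblast gene Otx2, the streak gene Mixl1 and the glypican gene Gpc4, and 242 genes of the table shared that pattern. Fgf3 was matched by the naive pluripotency gene Zfp42 and the endoderm genes Foxa2 and Sox17, within 176 genes. Fgf18 was matched by Nanog, within 72 genes. Fgf10's pattern was found at 5 genes of the table, itself included, and none of them was in the lists.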

How the data were processed

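H3K9ac was measured by chromatin immunoprecipitation and sequencing in 8 libraries, 2 replicates of each of 4 clones. The authors deposited a peak list per library in BED form, holding only chromosome, start and end positions and no score or signal, and these coordinates are the values used. Bowtie 1.1.2, MACS 1.4.2 and mm10 are named per the submitters' processing notes, while the sources used here give no calling threshold, control library or filter. Positions are printed counted from 1. The design text describes independent experiments but no separate cultures, and each genotype has only 2 clones, so a p-value here measures the spread between these libraries, which may be technical.

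A gene's covered length is the summed width of all peaks, taken whole, that overlapped by at least 1 bp a window of 1000 bp either side of either gene end. The RefSeq gene table (GRCm38.p6) gives no strand, so strand and start came from the RefSeq promoter table. Peaks overlapping between lists were merged into 26034 regions, 10171 of them in all 8 lists. Covered length was compared between 4 and 4 libraries by two-sided exact permutation over 70 splits, with Benjamini-Hochberg adjustment over 13622 genes with a peak. These splits ignored isolate pair, so in the genotype comparison any difference between pairs counts as spread within each genotype. Log2 region width, centred on each library's median, was fitted with limma 3.58.1 in R 4.3.3, with genotype and isolate pair as terms, and in a further fit with their interaction, at an adjusted p of 0.05. The rest was computed with numpy 2.4.6 and pandas 2.3.3 and drawn with matplotlib 3.10.9 (Python 3.11.15), and the tests were tried on simulated data.

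The genes and lists were chosen with earlier results of these data known. All 10 genes are named, with up to 4 genes of each pathway list, ranked by difference in libraries with a peak between genotypes and then by width change, and with list genes whose presence equals that of one of the 10. Alternatives tried were other windows, gene starts only, peaks of at least 1000 bp, peaks merged across 500 bp, lists cut to the shortest length by width, scaling by median width, no centring, a pseudocount, a replicate block and leaving out each library.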

Additional observations from a re-analysis of the deposited data

Results flagged for a closer look

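At 2 genes the null and fx/fx libraries were ordered one way in isolate pair 4 and the other way in pair 6. Covered length at Fgf5 was 368 bp higher in 4_C2 than in 4_1 and differed by -198.5 bp between 6_C4 and 6_1. At Fgf8 the differences were 1302 bp and -594.5 bp. The closest Fgf8 values in pair 4 were 1367 bp in 4_C2 and 1364 bp in 4_1. The interaction at Fgf5 had a limma adjusted p = 0.691, and that at Fgf8, in the fit with a pseudocount, a limma adjusted p = 0.878. At Fgf10, 1 of 4 null libraries, the first 4_C2 replicate, had a peak of 855 bp and the other 3 had 0 bp. Any group with a peak in a single library stands out in this way.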

How the results depend on the processing

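Depth is unknown, so a missing peak is not a measured absence. Under none of the alternatives run did any of the 9 genes reach an exact p under 0.05 between null and fx/fx libraries. All of these exact tests ignored isolate pair. Dividing by median width moved the genes separated by genotype from 291 to 166, and leaving out 1 library gave 346 to 1086. Counting only base pairs inside the windows moved those separated by isolate pair from 3841 to 2091. A pseudocount in regions of at least 4 lists gave 18 regions called by genotype (1 wider, 17 narrower), 330 by the interaction and 1476 by pair, against 0, 0 and 695 as reported, and the causes were not tested. Without centring, 2746 were called by pair. In lists of equal length, 260 of 12330 genes were separated by genotype and 3271 by pair. There, 42 of 80 combinations of FGF gene and library had a peak. With 1 library left out, limma called 0 to 1 regions by genotype, 0 to 1 by the interaction and 293 to 507 by pair.

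The 4 FGF genes with an exact p under 0.05 between pairs became 2 to 4 with 1 library left out, 5 with peaks of at least 1000 bp or lists of equal length (Fgf8 added), and 3 of 7 with gene starts only, and the 52 gene and library combinations with a peak became 43 to 48 of fewer combinations. The genotype difference at Fgf8 was -9.75 bp with windows of 2500 bp. Leaving out 1 library turned the sign of the genotype difference at Fgf4 (-1347 to 280.8 bp), Fgf5 (-149.3 to 267.3 bp), Fgf8 (-156.6 to 722.4 bp) and Fgf17 (-526.2 to 972.1 bp), and of the pair difference at Fgf10 (-49.33 to 353.7 bp) and Fgf22 (-255.8 to 308.8 bp). Fgf15 kept its sign between genotypes, at -1924 to -1163 bp. With the replicate number as a block, limma called 0 regions by genotype, 0 by the interaction and 629 by pair. Same-numbered replicates of different clones correlated between -0.0258 and 0.109 in their deviations, under 0.1 in 5 of 6 comparisons, so the numbers were not taken to pair the libraries, although replicate 1 had the longer list in all 4 clones.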
